A study of Mus musculus with 12 samples.

Results

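Spleen cells labelled as naive CD4+ T cells of wild-type (WT) C57BL/6 mice were activated for 3 days with TNF+TGF-β or with IL-6+TGF-β, and their RNA was sequenced in bulk. The 3 libraries with TNF+TGF-β were set against the 3 with IL-6+TGF-β, which are 6 of the 12 libraries of the study. Both groups received plate-bound anti-CD3 and anti-CD28, 2 μg/ml of each, and TGF-β at 2 ng/ml. TNF and IL-6 were each used at 20 ng/ml, and no allele of these mice was altered. Whether the 3 replicates of a group are separate mice or cultures is not stated in the labels, so every p-value rests on a spread that could be technical. No library with TGF-β alone was analysed here, so a gene raised by one cytokine and a gene lowered by the other cannot be told apart.

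Of 47643 genes in the deposited table, the 12132 that reached 1 FPKM in 3 or more of the 6 libraries were compared. FPKM count the fragments of a gene relative to its transcript length and to the depth of the library, so levels of different genes can be set side by side. Differences are TNF+TGF-β minus IL-6+TGF-β in log2(FPKM + 1), given with their standard error (SE). This scale understates the change of genes at a few FPKM. A gene was called at an adjusted p under 0.05, from limma with Benjamini-Hochberg adjustment over all 12132 genes. By this rule 964 genes were higher with TNF+TGF-β and 734 were lower. Of all genes compared, 14.0% were called, 7.95% as higher and 6.05% as lower. At least a 2-fold difference on this scale was reached by 546 of the genes called higher (4.50% of all genes) and by 397 of those called lower (3.27%). The median difference over all genes was 0.00. The filter was passed through TNF+TGF-β libraries alone by 232 genes and through IL-6+TGF-β libraries alone by 122, and such genes had to differ.

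**Figure D1:**
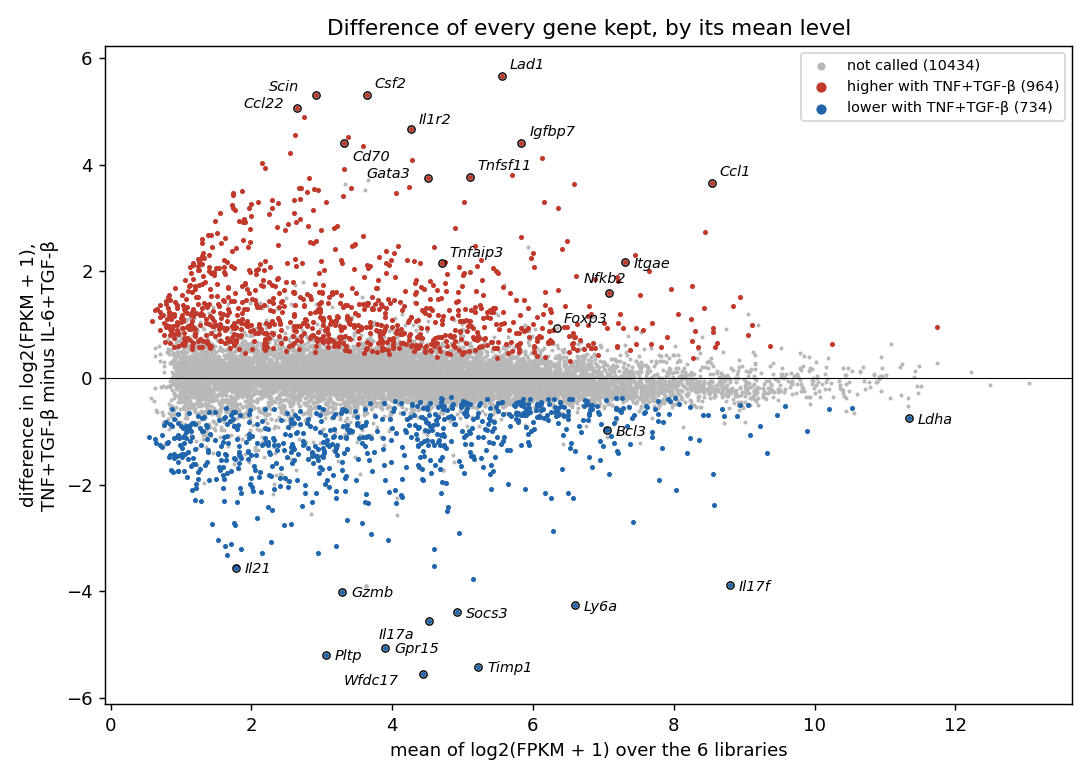
Each point is 1 of 12132 genes, placed by its mean log2(FPKM + 1) over the 6 libraries (horizontal axis) and its difference, TNF+TGF-β minus IL-6+TGF-β (vertical axis). Red points are the 964 genes called higher with TNF+TGF-β, blue points the 734 called lower, and circled genes are named. Lad1, Csf2 and Scin lie at the top, and Timp1, Wfdc17, Pltp and Gpr15 at the bottom.

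The libraries went against their label in genes of CD8 T cells and of B cells. Cd8a and Cd8b1, which encode the co-receptor of CD8 T cells, were above Cd4 in all 6 libraries. Cd4 was at 42.3, 79.6 and 52.7 FPKM with TNF+TGF-β, against 4.07, 25.2 and 14.1 FPKM with IL-6+TGF-β, and Cd8a was at 184, 148 and 189 FPKM with TNF+TGF-β, against 194, 142 and 158 FPKM with IL-6+TGF-β. Cd4 was higher with TNF+TGF-β in every library, with a difference of 2.18 ± 0.54 (SE, adjusted p = 0.0166). This call was lost without replicate 1 of IL-6+TGF-β (adjusted p = 0.0522) and without replicate 2 of TNF+TGF-β (adjusted p = 0.0756). Ighm, the heavy chain of IgM in B cells, was at 362, 467 and 354 FPKM with TNF+TGF-β, against 1059.9, 814 and 1303 FPKM with IL-6+TGF-β. The T cell receptor genes Cd3e, Cd3g, Cd3d and Trac were abundant in all 6 libraries and none was called. Total levels in FPKM ran between 689045 and 828161 per library. From the steps between low values the depth was estimated at 21500000 to 24000000 fragments, at which 3 fragments on a transcript of 1 kilobase correspond to 0.125 to 0.140 FPKM. This estimate is approximate and covers counting error only.

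Replicate 1 of IL-6+TGF-β stood apart from the other 5 libraries. Its log2 values deviated from the mean of its fellow replicates with an SD of 0.547 over genes, against 0.294 to 0.422 for the other 5 libraries, and its deviation correlated with log2 transcript length across 7466 genes at r = -0.37. For replicates 2 and 3 of IL-6+TGF-β that correlation was 0.33 and 0.17. Each deviation is taken from the other libraries of the group, so the trend with length cannot be laid to replicate 1 alone. Rank correlations within groups were 0.975 to 0.985 among TNF+TGF-β libraries and 0.956 to 0.981 among IL-6+TGF-β libraries, and 0.906 to 0.946 between the groups. Without this replicate 839 genes were higher and 638 lower, and 762 and 564 of these were among the calls made with it. Calls of named genes that were lost without it are marked where they occur.

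As background, TNF binds TNFR1 (gene Tnfrsf1a) and TNFR2 (gene Tnfrsf1b) and activates NF-κB, a family of transcription factors that switch on their own inhibitors. IL-6 binds its receptor (gene Il6ra) together with gp130 (gene Il6st), and the kinases of that receptor activate the transcription factor STAT3, whose target SOCS3 damps the signal. TGF-β drives naive CD4 T cells towards regulatory T cells (Treg) that express FOXP3, and together with IL-6 towards Th17 cells that secrete IL-17.

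Promoter windows of Nfkbia and Nfkb2, which were higher with TNF+TGF-β, and of Socs3, which was lower, are shown because they carry letters that NF-κB and STAT proteins are known to bind. Nfkbia was chosen after its values were seen. The sequences are RefSeq windows of GRCm38.p6, read from 250 bases before to 50 bases after a transcript start of the gene, 5′ to 3′ on the strand of the gene. Capitals mark the NF-κB motif, GGGA and TTTCC with any 1 letter between them, on either strand, in the windows of Nfkbia (chr12:55492598-55492897, minus strand) and Nfkb2 (chr19:46305445-46305744, plus strand), and the STAT motif TTCNNNGAA in the window of Socs3 (chr11:117969317-117969616, minus strand).
Nfkbia: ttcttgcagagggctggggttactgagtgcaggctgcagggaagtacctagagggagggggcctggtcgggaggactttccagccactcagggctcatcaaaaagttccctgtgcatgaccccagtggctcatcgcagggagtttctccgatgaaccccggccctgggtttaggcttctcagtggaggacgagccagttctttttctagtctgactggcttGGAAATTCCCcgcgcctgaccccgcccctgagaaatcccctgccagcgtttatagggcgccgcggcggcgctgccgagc
Nfkb2: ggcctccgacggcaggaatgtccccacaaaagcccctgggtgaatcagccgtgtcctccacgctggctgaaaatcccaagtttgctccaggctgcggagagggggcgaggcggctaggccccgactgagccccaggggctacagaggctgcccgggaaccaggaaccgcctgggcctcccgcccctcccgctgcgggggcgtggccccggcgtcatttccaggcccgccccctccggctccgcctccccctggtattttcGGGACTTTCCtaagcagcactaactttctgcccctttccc
Socs3: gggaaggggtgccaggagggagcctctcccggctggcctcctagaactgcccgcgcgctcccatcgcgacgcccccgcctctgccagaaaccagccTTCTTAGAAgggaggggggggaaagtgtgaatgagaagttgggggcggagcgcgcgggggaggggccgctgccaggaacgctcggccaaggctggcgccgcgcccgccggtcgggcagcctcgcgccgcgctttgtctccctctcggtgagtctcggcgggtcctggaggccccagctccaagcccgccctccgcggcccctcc
Of 32851 windows of this length in the table, 135 (0.411%) held the NF-κB motif on either strand, 2726 (8.30%) held TTCNNNGAA, which reads the same on both strands, and 1709 (5.20%) held TGAGTCA, the letters of an AP-1 element, on either strand. The capitals begin 29 bases before the start in Nfkbia, 11 bases into the transcript in Nfkb2 and 154 bases before the start in Socs3, and no other match of the motif was in these windows. The table holds 3 windows for Nfkb2, each at another transcript start. The most upstream of them (chr19:46304487-46304786) held no match, and the other two overlap and hold the same match, of which the first is shown. Overlap between different motifs was not counted, and a gene with several windows was counted as holding a motif where any of them did. Windows were in the table for 50 of the 62 named genes called higher and for 35 of the 48 called lower. The NF-κB motif was in the windows of 2 of those higher, Nfkb2 and Cxcl3, and of none of those lower. TTCNNNGAA was in the windows of 9 of those higher and of 4 of those lower, and TGAGTCA in 5 of each. A match is a description of the letters in this window and not of binding.

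Genes of the IL-6 pathway were mostly lower with TNF+TGF-β. Of 20 genes listed for the IL-6 receptor and the STAT3 response, 16 were kept, of which 12 were lower and 1 was higher, with a median difference of -0.92 beside 0.00 for all genes. Of those kept, Il21 and Il10 passed the filter through IL-6+TGF-β alone, which favours their calls. Socs3, whose promoter is shown above, was at 4.11, 8.02 and 5.26 FPKM with TNF+TGF-β, against 139, 126 and 149 FPKM with IL-6+TGF-β. Bcl3, which encodes an IκB-like cofactor of NF-κB and is induced by STAT3, was at 87.6, 108 and 86.2 FPKM with TNF+TGF-β, against 179.8, 184 and 193 FPKM with IL-6+TGF-β. In both genes every TNF+TGF-β library lay below every IL-6+TGF-β library, and Socs3 stayed under 10 FPKM in all 3 of them. The differences were -4.39 ± 0.25 (SE, adjusted p = 2.66e-07) for Socs3 and -0.98 ± 0.15 (SE, adjusted p = 0.00069) for Bcl3. In bulk RNA, fewer cells that express a gene and less RNA of it per cell cannot be told apart, here and below.

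Timp1, an inhibitor of matrix metalloproteinases that is induced by cytokines of the IL-6 family, was at 6.23, 1.66 and 8.68 FPKM with TNF+TGF-β, against 341, 194 and 213 FPKM with IL-6+TGF-β. Il10, an anti-inflammatory cytokine, was at 0.04, 0.22 and 0 FPKM with TNF+TGF-β, against 4.30, 3.50 and 3.10 FPKM with IL-6+TGF-β. Stat3 itself was at 118, 160.0 and 116 FPKM with TNF+TGF-β, against 165, 253 and 247 FPKM with IL-6+TGF-β. All 3 genes were lower with TNF+TGF-β without overlap between the libraries, Timp1 by 5.41, Il10 by 2.09 and Stat3 by 0.74. Socs1, Pim1, Pim2, Maf and Hif1a were also lower, with differences between -1.25 and -0.69.

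The receptors and kinases of IL-6 did not move as a block. Il6ra was at 8.86, 10.5 and 10.5 FPKM with TNF+TGF-β, against 7.56, 12.7 and 10.9 FPKM with IL-6+TGF-β, with overlapping libraries and a difference of -0.03 ± 0.20 (SE, adjusted p = 0.935). Il6st was at 5.05, 5.66 and 4.68 FPKM with TNF+TGF-β, against 6.60, 16.5 and 15.8 FPKM with IL-6+TGF-β. Its libraries did not overlap, but its call of -1.10 ± 0.34 (SE, adjusted p = 0.0498) was lost under most alternatives, and held without replicate 1 of IL-6+TGF-β (adjusted p = 0.00564). Without replicate 1, 2 or 3 of TNF+TGF-β its adjusted p was 0.127, 0.0992 and 0.127, and without replicate 2 or 3 of IL-6+TGF-β it was 0.141 and 0.162. Jak2, a receptor kinase, was the 1 member of the list that was higher, at 117, 149 and 87.1 FPKM with TNF+TGF-β, against 32.2, 53.7 and 49.0 FPKM with IL-6+TGF-β (1.37 ± 0.25 SE, adjusted p = 0.00224).

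Many NF-κB genes were higher with TNF+TGF-β, among them several that feed back on the pathway. All 26 listed NF-κB factors and targets were kept, of which 12 were higher, 1 was lower and 13 were not called, with a median difference of 0.47. Tnfaip3, which encodes the deubiquitinating inhibitor A20, was at 51.0, 77.7 and 40.1 FPKM with TNF+TGF-β, against 6.98, 16.9 and 12.2 FPKM with IL-6+TGF-β. Nfkbia, which encodes the inhibitor IκBα, was at 700.3, 837 and 669.9 FPKM with TNF+TGF-β, against 313, 300.4 and 249.7 FPKM with IL-6+TGF-β. Nfkb2, the precursor of the p52 subunit, was at 229, 255 and 215 FPKM with TNF+TGF-β, against 69.8, 81.1 and 80.0 FPKM with IL-6+TGF-β. In all 3 genes the lowest TNF+TGF-β library was more than 2 times the highest IL-6+TGF-β library. The differences were 2.16 ± 0.32 (SE, adjusted p = 0.000572) for Tnfaip3, 1.35 ± 0.14 (SE, adjusted p = 3.53e-05) for Nfkbia and 1.59 ± 0.17 (SE, adjusted p = 3.61e-05) for Nfkb2.

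Among the subunits, Relb was at 118, 125 and 108 FPKM with TNF+TGF-β, against 78.9, 73.9 and 71.0 FPKM with IL-6+TGF-β. Rela, the main activating subunit, was at 110.1, 134 and 106 FPKM with TNF+TGF-β, against 90.6, 135 and 124 FPKM with IL-6+TGF-β. Relb libraries did not overlap and those of Rela did. Relb differed by 0.64 ± 0.11 (SE, adjusted p = 0.00143) and Rela by 0.02 ± 0.17 (SE, adjusted p = 0.954). Nfkb1 and Rel, 2 further subunits, were higher by 1.02 and 0.83. Tnip1, whose product acts with A20, was higher by 1.46 and Cd83, a surface protein of activated lymphocytes and dendritic cells, by 1.90. Tnip2, another partner of A20, was the member called lower, at 20.5, 20.1 and 20.3 FPKM with TNF+TGF-β, against 53.7, 58.3 and 51.8 FPKM with IL-6+TGF-β (-1.38 ± 0.12 SE, adjusted p = 6.50e-06).

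The genes of TNF and its receptors were not called. Tnfrsf1b was at 74.4, 108 and 70.8 FPKM with TNF+TGF-β, against 36.7, 77.4 and 64.9 FPKM with IL-6+TGF-β, and Tnfrsf1a was at 31.4, 24.6 and 26.0 FPKM with TNF+TGF-β, against 21.9, 22.7 and 23.9 FPKM with IL-6+TGF-β. The libraries of Tnfrsf1b overlapped, those of Tnfrsf1a did not (0.53 ± 0.26 SE, adjusted p = 0.216 and 0.24 ± 0.19 SE, adjusted p = 0.47). The unadjusted 95% interval of the Tnfrsf1b difference ran from -0.03 to 1.09. Tnf was at 15.2, 19.6 and 18.8 FPKM with TNF+TGF-β, against 17.0, 22.1 and 17.7 FPKM with IL-6+TGF-β, with overlapping libraries and a difference of -0.08 ± 0.22 (SE, adjusted p = 0.859).

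Other ligands of the TNF superfamily were the list with the largest share of members called higher. Of 14 ligands, 12 were kept and 9 of these were higher with TNF+TGF-β, none was lower, and the median difference was 1.54. Cd70, the ligand of CD27 on T cells, was at 45.0, 48.9 and 40.4 FPKM with TNF+TGF-β, against 1.55, 0.91 and 1.04 FPKM with IL-6+TGF-β. Tnfsf11, which encodes RANKL, was at 140.0, 119 and 118 FPKM with TNF+TGF-β, against 9.56, 7.45 and 8.09 FPKM with IL-6+TGF-β. Tnfsf8, which encodes CD30 ligand, was at 63.6, 74.3 and 56.2 FPKM with TNF+TGF-β, against 4.60, 3.87 and 4.99 FPKM with IL-6+TGF-β. Each of the 3 ligands was many times higher in every TNF+TGF-β library than in any IL-6+TGF-β library, with differences of 4.41 ± 0.17 (SE, adjusted p = 1.09e-08) for Cd70, 3.76 ± 0.22 (SE, adjusted p = 3.59e-07) for Tnfsf11 and 3.58 ± 0.24 (SE, adjusted p = 7.84e-07) for Tnfsf8. Tnfsf9 (4-1BB ligand), Fasl, Cd40lg, Tnfsf4 (OX40 ligand), Tnfsf14 (LIGHT) and Tnfsf10 (TRAIL) were higher by 1.37 to 1.83. Lta and Ltb, the lymphotoxin genes, were not called. Cd70 (chr17:57145997-57149777), Tnfsf9 (chr17:57105325-57107757) and Tnfsf14 (chr17:57189492-57194177) lie next to each other on mouse chromosome 17 in GRCm38 coordinates of GENCODE M21, an observation made after their values were seen.

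**Figure D2:**
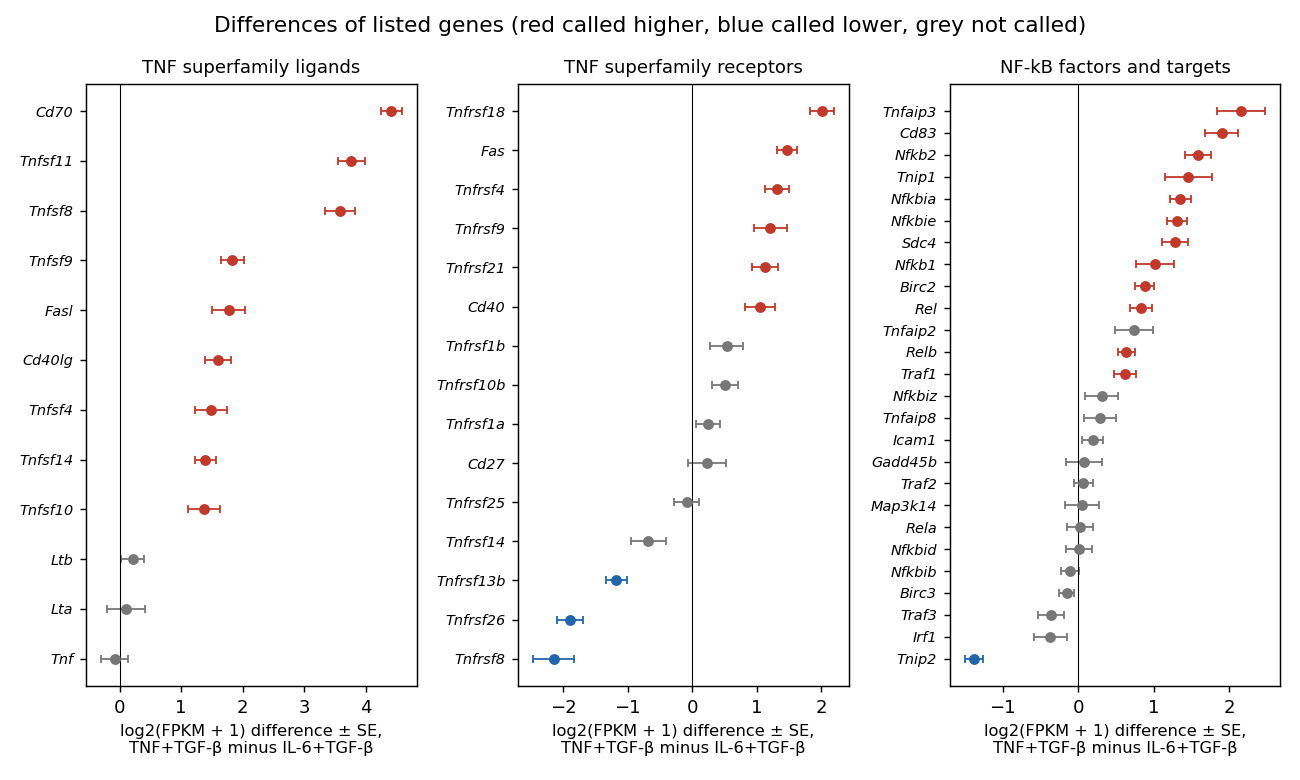
Points are differences in log2(FPKM + 1), TNF+TGF-β minus IL-6+TGF-β, and bars are ± 1 SE from the fit, for the kept genes of 3 lists (rows). Of the ligands 9 of 12 lie clearly to the right of 0, while receptors spread from Tnfrsf8 at -2.15 to Tnfrsf18 at 2.01.

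Receptors of the family moved in both directions. Of 15 kept receptors 6 were higher, 3 were lower, and the median was 0.51. Tnfrsf18, which encodes the costimulatory receptor GITR, was at 370.2, 474 and 373 FPKM with TNF+TGF-β, against 122, 97.3 and 82.4 FPKM with IL-6+TGF-β. Tnfrsf8, which encodes CD30, was at 0.75, 0.67 and 0.73 FPKM with TNF+TGF-β, against 3.79, 11.2 and 6.52 FPKM with IL-6+TGF-β. Tnfrsf18 was higher in all TNF+TGF-β libraries (2.01 ± 0.18 SE, adjusted p = 7.98e-06) and Tnfrsf8 lower in all of them (-2.15 ± 0.32 SE, adjusted p = 0.000585), the reverse of its ligand Tnfsf8. Tnfrsf8 passed the filter through IL-6+TGF-β alone, which favours its call. Fas, Tnfrsf4 (OX40), Tnfrsf9 (4-1BB), Tnfrsf21 and Cd40 were higher by 1.05 to 1.47. Tnfrsf26 was lower by 1.90. Tnfrsf13b, which encodes TACI, a receptor of B cells, was lower by 1.18, and B cell markers moved the same way (below), whose part in this result was not tested.

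Of the TGF-β pathway, 17 of 20 genes were kept, 2 were higher and none was lower, with a median of 0.24. Tgfbr1, the signalling receptor, was at 49.8, 48.5 and 41.8 FPKM with TNF+TGF-β, against 14.6, 20.3 and 21.6 FPKM with IL-6+TGF-β. Tgfb1, the ligand, was at 301, 359 and 288 FPKM with TNF+TGF-β, against 51.2, 165 and 144 FPKM with IL-6+TGF-β. Both were higher in every TNF+TGF-β library, Tgfbr1 by 1.28 ± 0.19 (SE, adjusted p = 0.000615) and Tgfb1 by 1.55 ± 0.41 (SE, adjusted p = 0.0238). The count of 2 fell to 1 because the Tgfb1 call was lost without any 1 replicate of TNF+TGF-β (adjusted p = 0.0639, 0.0869 and 0.053 without replicates 1, 2 and 3) and without replicate 1 of IL-6+TGF-β (adjusted p = 0.0693). Ldlrad4, an inhibitor of TGF-β signalling, was called lower under median-ratio scaling (-0.53, adjusted p = 0.0297), with the 9 WT libraries (adjusted p = 0.0467), with the trend with transcript length removed (adjusted p = 0.0235) and without replicate 2 of TNF+TGF-β (adjusted p = 0.0291). Smad3, a signal carrier of the pathway, was called lower without replicate 1 of IL-6+TGF-β (-1.05, adjusted p = 0.0302). The SMAD target genes Smad7, Skil, Pmepa1 and Tgif1 were not called, with differences between -0.21 and 0.41.

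Th17 cytokines were far lower with TNF+TGF-β, while Rora, the gene of a nuclear receptor of Th17 cells, was not called. Of 18 listed Th17 genes 16 were kept, 9 were lower, 3 were higher, and the median was -0.99. Among those lower, Il21 and Ltb4r1 passed the filter through IL-6+TGF-β alone, which favours their calls. Il17a (chr1:20730905-20734496) was at 7.36, 1.30 and 4.67 FPKM with TNF+TGF-β, against 186, 65.2 and 111 FPKM with IL-6+TGF-β. Its neighbour Il17f (chr1:20777146-20790617) was at 180.2, 42.2 and 196 FPKM with TNF+TGF-β, against 2466, 1222 and 1643 FPKM with IL-6+TGF-β. Il21, a cytokine that IL-6 induces through STAT3, was listed at 0 in all 3 TNF+TGF-β libraries, against 11.9, 10.1 and 10.3 FPKM with IL-6+TGF-β. The groups were far apart in all 3 genes, yet Il17f was above 40 FPKM in every TNF+TGF-β library, and replicate 2 was the lowest of its group in both IL-17 genes. The differences were -4.55 ± 0.43 (SE, adjusted p = 1.23e-05) for Il17a, -3.88 ± 0.47 (SE, adjusted p = 0.0001) for Il17f and -3.55 ± 0.14 (SE, adjusted p = 1.09e-08) for Il21.

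Rora was at 56.7, 98.5 and 48.6 FPKM with TNF+TGF-β, against 64.4, 75.7 and 53.7 FPKM with IL-6+TGF-β. The groups overlapped, with a difference of 0.02 ± 0.28 (SE, adjusted p = 0.974). Its unadjusted 95% interval ran from -0.58 to 0.62, and it changed sign under median-ratio scaling (-0.01). Other genes of the program were lower: Ltb4r1, a leukotriene receptor, by 2.30, Maf by 1.25, Batf by 1.06, and Ahr by 0.91. Il23r, which encodes the receptor for IL-23 and missed the filter, was at 0.02, 0.02 and 0.02 FPKM with TNF+TGF-β, against 0.97, 1.28 and 1.06 FPKM with IL-6+TGF-β. Ccr6, the chemokine receptor of Th17 cells, was at 467, 416 and 446 FPKM with TNF+TGF-β, against 155, 108 and 160.5 FPKM with IL-6+TGF-β, and was higher (1.67 ± 0.18 SE, adjusted p = 4.40e-05). Tmem176a and Tmem176b were also higher, by 1.28 and 0.98. Ccl20, the ligand of CCR6, was at 126, 47.1 and 139.8 FPKM with TNF+TGF-β, against 168, 63.5 and 111 FPKM with IL-6+TGF-β and was not called.

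**Figure D3:**
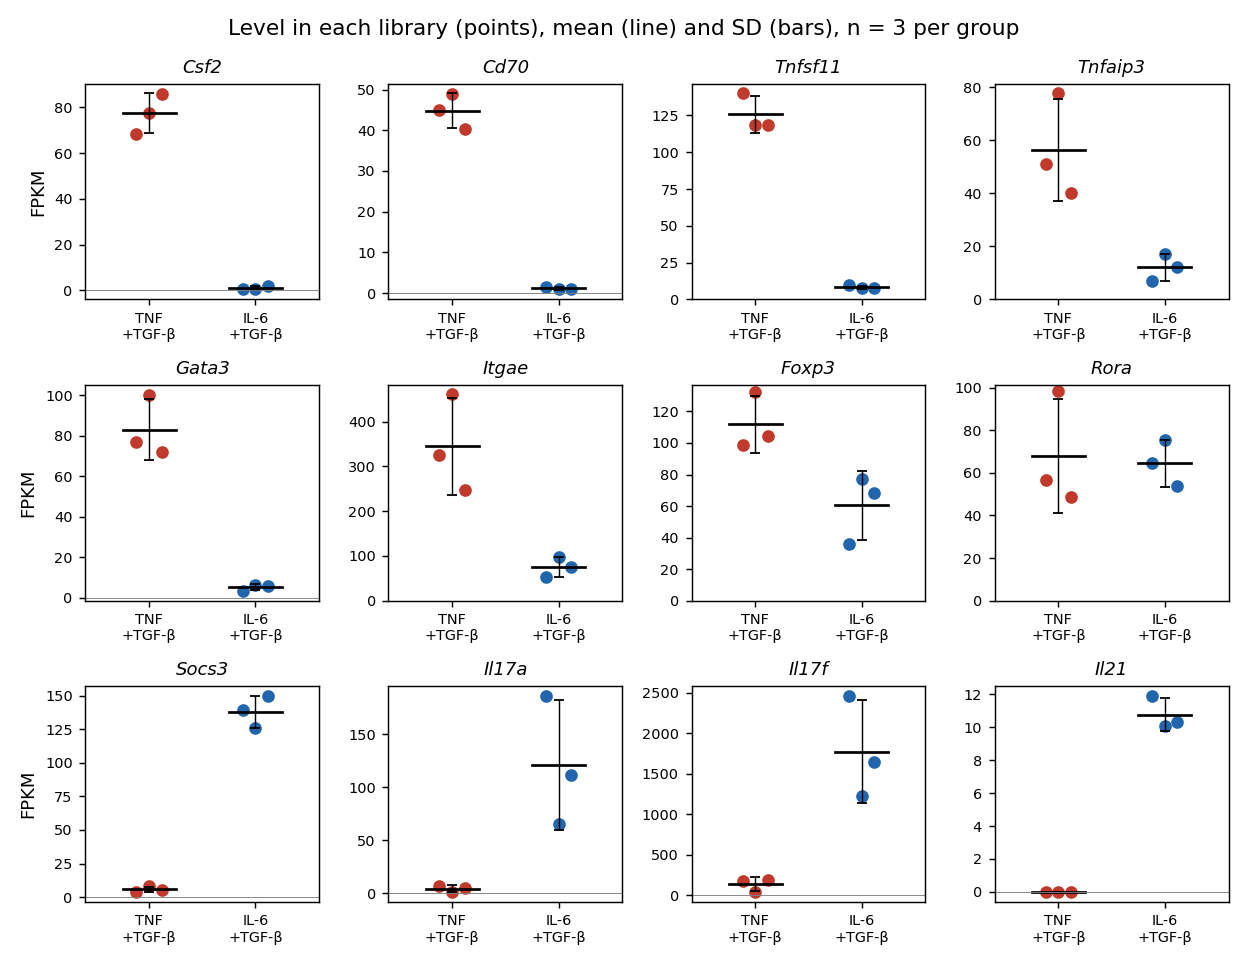
Points are FPKM in single libraries (vertical axis, linear), black lines are means and bars ± 1 SD of 3 libraries, with TNF+TGF-β in red and IL-6+TGF-β in blue. Csf2, Cd70, Tnfsf11, Tnfaip3, Gata3 and Itgae lie above their counterparts with no overlap, Foxp3 lies above without being called, Socs3, Il17a, Il17f and Il21 lie below, and the Rora libraries overlap.

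Genes of the Treg program were more often higher than lower, while Foxp3 did not pass the threshold. Of 19 kept genes 7 were higher and 2 lower, with a median of 0.94. Il10, among those lower, passed the filter through IL-6+TGF-β alone. Foxp3 was at 99.0, 132 and 104 FPKM with TNF+TGF-β, against 35.9, 77.0 and 68.5 FPKM with IL-6+TGF-β. Every TNF+TGF-β library was above every IL-6+TGF-β library, which 17.3% of all genes were, and the difference was 0.94 ± 0.42 (SE, adjusted p = 0.181). It passed in 1 of the alternative fits (adjusted p = 0.0175). Ikzf2, which encodes the Treg factor Helios, was at 22.5, 24.2 and 16.9 FPKM with TNF+TGF-β, against 1.48, 2.18 and 0.89 FPKM with IL-6+TGF-β. Itgae, which encodes the CD103 chain of the integrin that binds E-cadherin, was at 325, 462 and 248 FPKM with TNF+TGF-β, against 53.7, 97.8 and 75.2 FPKM with IL-6+TGF-β. Nrp1, a surface receptor that marks Treg cells from the thymus, was at 80.4, 90.6 and 64.1 FPKM with TNF+TGF-β, against 8.61, 11.6 and 10.8 FPKM with IL-6+TGF-β. All 3 were several times higher with TNF+TGF-β in every library, by 3.16 for Ikzf2, 2.17 for Itgae and 2.80 for Nrp1. Ebi3, a subunit of IL-27 and IL-35, was higher by 3.48 and Izumo1r, the folate receptor FR4, by 1.32. Ctla4, an inhibitory receptor, was lower by 0.99. Il2ra, the α chain of the IL-2 receptor, was at 170.1, 157 and 206 FPKM with TNF+TGF-β, against 161, 238 and 245 FPKM with IL-6+TGF-β, with overlapping libraries (-0.26 ± 0.34 SE, adjusted p = 0.678).

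Gata3, the factor that directs Th2 cells, was at 77.1, 100.4 and 72.0 FPKM with TNF+TGF-β, against 3.55, 6.34 and 6.12 FPKM with IL-6+TGF-β. No library of either group came near the other, and the difference was 3.75 ± 0.29 (SE, adjusted p = 3.10e-06). The Th2 cytokines were nearly silent: Il4, Il5 and Il13 missed the filter, and the highest of their values was 1.47 FPKM for Il13 with TNF+TGF-β. Of the 7 kept Th2 and Th9 genes 3 were higher and 2 lower (median 0.93), the chemokine receptor genes Ccr4 by 1.94 and Ccr8 by 0.93 with Gata3, against Spi1, the gene of PU.1, by 1.40 and Il4ra by 0.95. Spi1 was at 4.19, 3.71 and 4.15 FPKM with TNF+TGF-β, against 13.3, 8.52 and 16.0 FPKM with IL-6+TGF-β. B cell markers moved the same way (below), and their part in the Spi1 result was not tested. The Il4ra call was lost without any 1 of the libraries other than replicate 1 of IL-6+TGF-β (adjusted p = 0.107, 0.093 and 0.0902 without TNF+TGF-β replicates 1, 2 and 3, 0.121 and 0.14 without IL-6+TGF-β replicates 2 and 3). Il9 was at 10.1, 3.92 and 42.6 FPKM with TNF+TGF-β, against 4.43, 4.62 and 8.17 FPKM with IL-6+TGF-β, with replicate 3 of TNF+TGF-β far above the others, and was not called.

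Granzyme, perforin and interferon-γ genes were lower and the receptor for IL-18 higher. Of 16 kept Th1 and cytotoxic genes 5 were higher and 7 lower, with a median of -0.36. Gzmb, which encodes granzyme B, was at 0.79, 1.84 and 1.86 FPKM with TNF+TGF-β, against 32.4, 38.9 and 44.4 FPKM with IL-6+TGF-β. Prf1, which encodes perforin, was at 3.84, 4.67 and 4.97 FPKM with TNF+TGF-β, against 20.0, 30.4 and 29.6 FPKM with IL-6+TGF-β. Ifng was at 3.00, 1.68 and 6.77 FPKM with TNF+TGF-β, against 16.3, 10.9 and 20.2 FPKM with IL-6+TGF-β. None of the 3 genes overlapped between the groups, and differences were -4.01 ± 0.43 (SE, adjusted p = 4.09e-05) for Gzmb, -2.32 ± 0.33 (SE, adjusted p = 0.000343) for Prf1 and -1.90 ± 0.47 (SE, adjusted p = 0.0155) for Ifng. The Ifng call was lost without replicate 1 or 2 of TNF+TGF-β (adjusted p = 0.0573 and 0.0766) and without replicate 3 of IL-6+TGF-β (adjusted p = 0.0631). Tbx21, the gene of T-bet, the factor of Th1 cells, was at 8.50, 5.67 and 10.4 FPKM with TNF+TGF-β, against 11.1, 13.6 and 16.4 FPKM with IL-6+TGF-β and was not called (-0.70 ± 0.25 SE, adjusted p = 0.0879). Il18rap and Il18r1, the chains of the IL-18 receptor, were higher by 2.82 and 2.34, and Hopx, a homeodomain cofactor of effector cells, by 2.09. Gzma was lower by 1.74 and Cxcr3, a chemokine receptor of Th1 cells, by 1.24. Eomes, a relative of T-bet, was higher by 1.06, a call lost without replicate 1 or 2 of TNF+TGF-β (adjusted p = 0.052 and 0.0857) and without replicate 1 of IL-6+TGF-β (adjusted p = 0.0712). Markers of NK cells summed to 42.9 to 52.5 FPKM with TNF+TGF-β and to 168 to 201.3 FPKM with IL-6+TGF-β, most of it Klrd1, a gene of NK cells and activated CD8 T cells, at 29.5, 34.5 and 38.5 FPKM with TNF+TGF-β, against 175, 176 and 145 FPKM with IL-6+TGF-β. Of the 7 markers 4 were kept, 3 lower and Eomes higher. Eomes passed the filter on low values through TNF+TGF-β alone and Klre1 through IL-6+TGF-β alone, which favours their calls. The NK cell genes Ncr1, Klrb1c and Klra8 were below 1 FPKM in all 6 libraries. Klrk1, lower by 0.94, lost its call without any single library (adjusted p up to 0.0998). The part of such cells in the cytotoxic genes was not tested.

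Among secreted cytokines the largest rise was that of Csf2, the gene of GM-CSF. Csf2 (chr11:54247271-54249667) was at 68.5, 77.8 and 86.0 FPKM with TNF+TGF-β, against 0.71, 0.58 and 1.90 FPKM with IL-6+TGF-β, the lowest TNF+TGF-β library being many times above the highest with IL-6+TGF-β (5.30 ± 0.29 SE, adjusted p = 1.89e-07). Penk, the precursor of enkephalin peptides, was at 334, 400.2 and 284 FPKM with TNF+TGF-β, against 36.3, 18.5 and 26.7 FPKM with IL-6+TGF-β. It was higher by 3.63 ± 0.33 (SE, adjusted p = 1.04e-05). Csf1, the gene of M-CSF, was lower by 1.58 and Osm, the gene of oncostatin M, by 1.01. Il2 was at 1.31, 0.73 and 1.91 FPKM with TNF+TGF-β, against 2.18, 1.69 and 2.02 FPKM with IL-6+TGF-β and was not called (-0.38 ± 0.22 SE, adjusted p = 0.308). Of the 12 kept genes of this list 3 were higher and 3 lower, with a median of -0.44. Il10 was among those lower and passed the filter through IL-6+TGF-β alone.

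Chemokine genes moved in both directions. Of 12 kept, 6 were higher and 3 lower (median 1.43), and 4 of the 12 passed the filter through 1 group alone. Among these were Ccl22, Ccl17 and Cxcl3, through TNF+TGF-β alone, which favours their calls. Ccl22, a ligand of CCR4, was at 30.8, 40.8 and 35.3 FPKM with TNF+TGF-β, against 0, 0.15 and 0.11 FPKM with IL-6+TGF-β. Ccl17, another ligand of CCR4, was at 9.63, 10.4 and 10.3 FPKM with TNF+TGF-β and was listed at 0 in all 3 IL-6+TGF-β libraries. Ccl1, the ligand of CCR8, was at 1334, 1117 and 1555 FPKM with TNF+TGF-β, against 166, 50.0 and 136 FPKM with IL-6+TGF-β. Ccl22 and Ccl17 were at or near 0 with IL-6+TGF-β, and Ccl1 was high in both groups. The differences were 5.07 ± 0.26 (SE, adjusted p = 1.19e-07) for Ccl22, 3.47 ± 0.23 (SE, adjusted p = 6.90e-07) for Ccl17 and 3.66 ± 0.59 (SE, adjusted p = 0.000953) for Ccl1. Both receptors, Ccr4 and Ccr8, were higher as well (above). Cx3cl1, chosen after its values were seen because it lies between Ccl22 (chr8:94745590-94751699) and Ccl17 (chr8:94810453-94812036) at chr8:94772009-94782427, was at 10.4, 12.6 and 7.48 FPKM with TNF+TGF-β, against 0, 0.04 and 0.01 FPKM with IL-6+TGF-β. Cx3cl1 also passed the filter through TNF+TGF-β alone. Cxcl3, a neutrophil attractant, was at 3.18, 10.5 and 3.67 FPKM with TNF+TGF-β and was listed at 0 in all 3 IL-6+TGF-β libraries (2.60 ± 0.30 SE, adjusted p = 6.29e-05). Ccl3 and Ccl4, inflammatory chemokines, were lower by 1.41 and 2.10, while Ccl5, which attracts T cells and monocytes, was higher by 1.56. Cxcl10, a ligand of CXCR3, was lower by 1.11 and Cxcl16, the ligand of CXCR6, was higher by 1.58. Dendritic cells also express Ccl17, Ccl22, Cd83 and Ebi3, and their marker sums are given below, but their part in these results was not tested.

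Receptors that guide migration were called in equal numbers each way. Of 20 kept genes 6 were higher and 6 lower, with a median of -0.11. Gpr15, a receptor that directs T cells to the large intestine, was at 1.95, 1.24 and 1.62 FPKM with TNF+TGF-β, against 84.6, 89.0 and 80.8 FPKM with IL-6+TGF-β. Its level with TNF+TGF-β was a small fraction of that with IL-6+TGF-β in every library (-5.05 ± 0.16 SE, adjusted p = 7.04e-09). Itgae, described above, moved the opposite way. S1pr1, which lets T cells leave lymph nodes, was lower by 1.35. Cxcr5, a receptor of B cells and of follicular helper cells, was lower by 1.46. Cxcr5 and Il21 were the 2 of 11 kept follicular helper genes that were called. Bcl6, the factor that defines those cells, had overlapping libraries (-0.11 ± 0.23 SE, adjusted p = 0.802).

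Genes for the receptors of IL-1 moved in opposite directions. Of 14 kept genes of the IL-1 and IL-18 family, 6 were higher and 3 lower (median 0.53). Il1r2, a decoy receptor that binds IL-1 without signalling, was at 99.4, 147 and 60.6 FPKM with TNF+TGF-β, against 3.04, 2.68 and 2.79 FPKM with IL-6+TGF-β. Il1r1, the signalling receptor, was at 1.64, 0.84 and 0.93 FPKM with TNF+TGF-β, against 6.14, 8.80 and 10.2 FPKM with IL-6+TGF-β. The decoy was high and the signalling receptor low in every TNF+TGF-β library, and the reverse held with IL-6+TGF-β. The differences were 4.66 ± 0.33 (SE, adjusted p = 1.34e-06) and -2.13 ± 0.23 (SE, adjusted p = 4.30e-05). On chromosome 1 the decoy gene (chr1:40074079-40125231) shares a stretch with Il1r1 (chr1:40225080-40317257), Il18r1 (chr1:40465552-40500854) and Il18rap (chr1:40515362-40551705), and Il1r1 alone of these was lower. Other genes of that stretch are not described here. Il1rn, the IL-1 receptor antagonist, was at 19.0, 21.5 and 19.2 FPKM with TNF+TGF-β, against 2.57, 4.71 and 3.52 FPKM with IL-6+TGF-β (2.21 ± 0.46 SE, adjusted p = 0.00599), a call lost at a pseudocount of 0.1 (adjusted p = 0.156), and Myd88, the adaptor of this receptor family, was lower by 0.74. Il1b was higher by 1.39. Myeloid markers summed to 101 to 171 FPKM with TNF+TGF-β and to 35.4 to 126 FPKM with IL-6+TGF-β, and none of the 6 kept was called. The spread in that fit includes the Tnfr2-/- libraries, in which Lyz2, the lysozyme of myeloid cells, was at 1310.1, 928 and 178 FPKM. With the 9 WT libraries alone 4 of the 6 were called higher, namely Lyz2 (1.74, adjusted p = 0.0253), Cd14 (1.12, adjusted p = 0.0127), Cd68 (1.05, adjusted p = 0.00429) and Csf1r (0.87, adjusted p = 0.049), and with the 6 libraries compared alone Cd14 and Cd68 were. The other 2, S100a8 and S100a9, went the other way (-1.21 and -1.15, adjusted p = 0.529 and 0.557 in the main fit). With the replicate number as a block these 2 were called lower (adjusted p = 0.0259 and 0.0288) and the 4 higher. Cd14 passed the filter through TNF+TGF-β alone, which favours its calls. The part of myeloid cells in these results was not tested.

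Costimulatory and inhibitory receptors were called in both directions, 5 higher and 4 lower of 15 kept (median 0.30). Cd226, which encodes the activating receptor DNAM-1, was at 46.6, 37.1 and 40.8 FPKM with TNF+TGF-β, against 10.2, 6.98 and 7.89 FPKM with IL-6+TGF-β. Cd274, which encodes PD-L1, was at 15.1, 16.8 and 14.6 FPKM with TNF+TGF-β, against 1.93, 4.38 and 3.26 FPKM with IL-6+TGF-β. Cd28 was at 46.1, 40.5 and 40.0 FPKM with TNF+TGF-β, against 90.9, 77.7 and 75.3 FPKM with IL-6+TGF-β. The first 2 genes were higher and Cd28 lower in every library, by 2.19, 2.02 and 0.93. Cd200 and Pdcd1lg2, ligands of inhibitory receptors, were higher by 2.09 and 1.78, and Lag3, an inhibitory receptor, was lower by 1.74. Of 14 genes for the common γ chain cytokines and STAT5, Il9r was higher by 2.16 and Il4ra lower, as given above, while the other 12 were not called (median 0.11). Il9r passed the filter through TNF+TGF-β alone, which favours its call.

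The early-response factors of T cell receptor signalling were called in part. Of 18 kept AP-1, NR4A and EGR genes 4 were higher and 2 lower (median 0.26). Egr2, a factor induced by calcium and ERK signals, was at 80.9, 117 and 72.2 FPKM with TNF+TGF-β, against 26.9, 26.3 and 32.3 FPKM with IL-6+TGF-β (1.60 ± 0.24 SE, adjusted p = 0.000477). Nr4a3 was higher by 1.59 and Egr3 by 1.33, with Nr4a1 by 0.77, and the Egr3 call was lost without replicate 2 of TNF+TGF-β (adjusted p = 0.051). The AP-1 genes called lower were Batf by 1.06 and Fosl2 by 0.80. The Batf call held whichever library was left out. The Fosl2 call was lost without any single library other than replicate 1 of IL-6+TGF-β. It was also lost at pseudocounts of 0.1 and 0.5, under TPM and under each alternative filter. Of 10 kept ERK feedback genes, Dusp5, a phosphatase of ERK, was higher by 2.45 and Dusp1 by 0.93, and none was lower. Dusp16, a phosphatase of JNK, was called lower without replicate 2 of TNF+TGF-β (-0.64, adjusted p = 0.0387) and with the trend with transcript length removed (adjusted p = 0.0279). With that trend removed 4 genes were called higher, Dusp2 and Dusp4 beside these. The Dusp1 call was lost without any library other than replicate 2 of IL-6+TGF-β (adjusted p = 0.0668, 0.177 and 0.0677 without TNF+TGF-β replicates 1, 2 and 3, 0.102 and 0.14 without IL-6+TGF-β replicates 1 and 3).

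Among the BCL2 family, both inhibitors and promoters of cell death were higher. Bcl2l1, which encodes BCL-XL, was at 85.3, 87.2 and 84.0 FPKM with TNF+TGF-β, against 20.1, 30.3 and 26.8 FPKM with IL-6+TGF-β. It was higher by 1.71 ± 0.23 (SE, adjusted p = 0.00024), with no overlap. Bcl2a1d and Bcl2a1b, which encode A1, were higher by 1.04 and 0.91, but these genes are near-identical copies and reads could be split between them. Bmf and Bbc3, which promote cell death, were higher by 0.69 and 0.51. The survival genes Bcl2 and Mcl1 were not called (0.07 ± 0.21 SE and -0.02 ± 0.13 SE). In all, 5 of 16 kept BCL2 family genes were higher and 1, Bok, was lower (median 0.08). The Bok call (-0.85 ± 0.25 SE, adjusted p = 0.0403) was lost without replicate 1 or 3 of TNF+TGF-β (adjusted p = 0.15 and 0.147) and without replicate 1 or 3 of IL-6+TGF-β (adjusted p = 0.136 and 0.112).

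Of the glycolysis and hypoxia genes, those called were lower with TNF+TGF-β. All 22 were kept, 9 were lower and none higher, with a median of -0.48. Egln3, an oxygen sensor that is itself induced by hypoxia, was at 4.16, 4.28 and 6.23 FPKM with TNF+TGF-β, against 26.6, 25.3 and 23.5 FPKM with IL-6+TGF-β. Pkm, the gene of pyruvate kinase, was at 703, 592 and 729 FPKM with TNF+TGF-β, against 1198, 1442 and 1385 FPKM with IL-6+TGF-β. Ldha, the gene of lactate dehydrogenase A, was at 2062, 1738 and 2232 FPKM with TNF+TGF-β, against 4166, 3037 and 3031 FPKM with IL-6+TGF-β. All 3 were lower in every TNF+TGF-β library, by 2.16, 0.99 and 0.75. Bnip3, a hypoxia-induced gene of mitochondrial turnover, was lower by 1.05. The Ldha call was lost without any single library (adjusted p between 0.0556 and 0.155). The count of 9 fell to 4 without replicate 2 of TNF+TGF-β and to 5 without replicate 1 of IL-6+TGF-β. The glucose transporter genes Slc2a1 and Slc2a3 were not called (-0.16 ± 0.14 SE and 0.43 ± 0.27 SE).

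**Figure D4:**
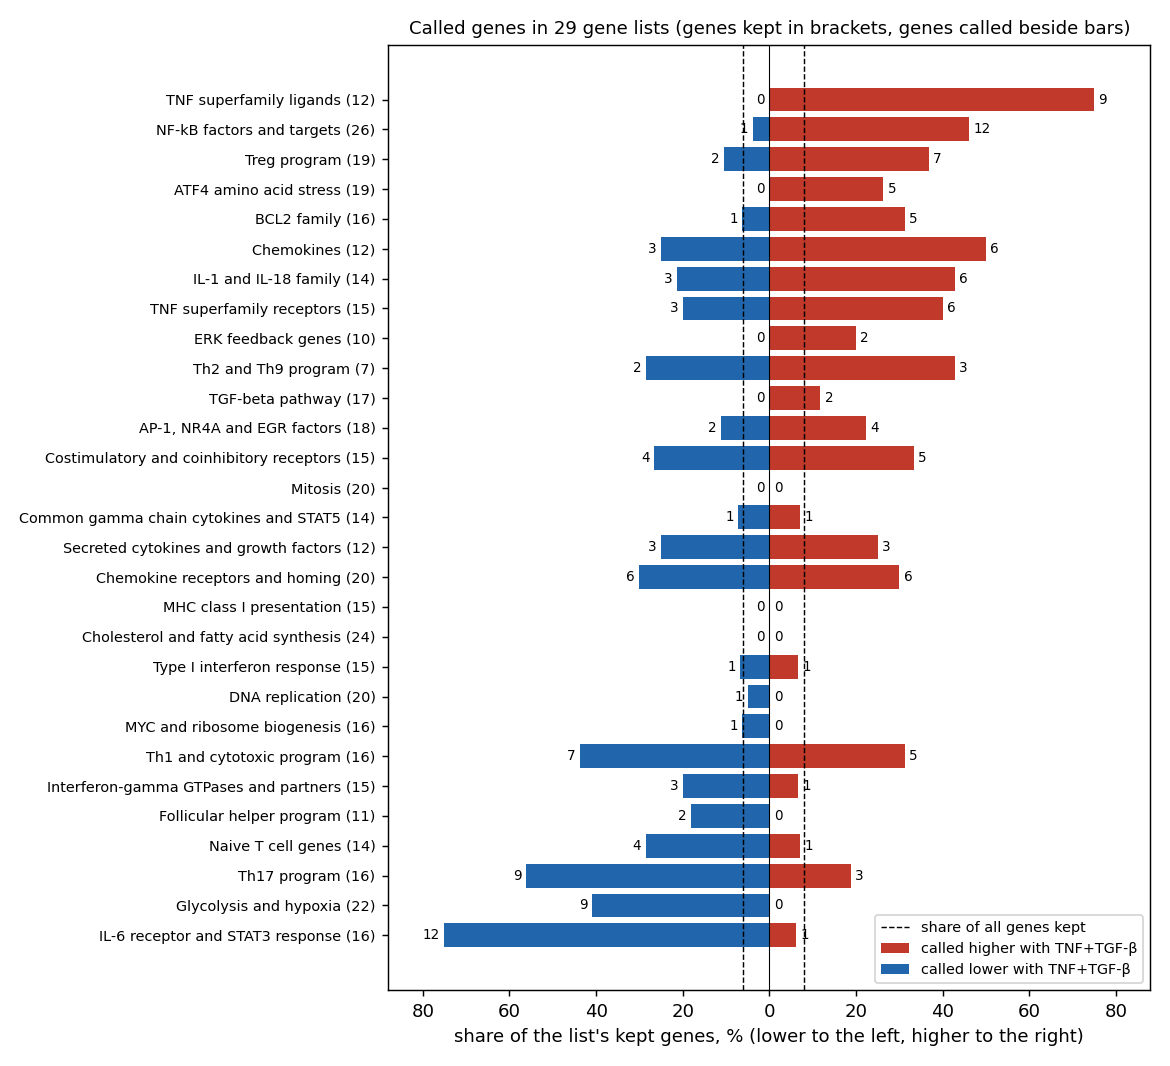
Bars give, for each of 29 gene lists (rows, with the number of genes kept in brackets), the share of kept genes in percent called higher with TNF+TGF-β (red, to the right) and lower (blue, to the left), with the number of genes beside each bar. Dashed lines mark the shares over all 12132 genes, 7.95% higher and 6.05% lower. TNF superfamily ligands head the plot with 9 of 12 higher, and the IL-6 and STAT3 list closes it with 12 of 16 lower.

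Genes of amino acid stress were called for 5 of 19 kept members, all higher (median 0.16). Nupr1, a stress-induced chromatin protein, was at 185, 167 and 229.9 FPKM with TNF+TGF-β, against 21.5, 8.55 and 11.4 FPKM with IL-6+TGF-β. Cebpb, a transcription factor of stress and inflammation, was at 165, 90.6 and 189.5 FPKM with TNF+TGF-β, against 24.4, 22.0 and 19.3 FPKM with IL-6+TGF-β. The TNF+TGF-β libraries were several times above the others in both genes (3.80 ± 0.38 SE, adjusted p = 2.13e-05 and 2.65 ± 0.28 SE, adjusted p = 4.05e-05). Atf4, Ddit3 and Asns, core members of the response, were not called. Phgdh, the first enzyme of serine synthesis, was higher by 0.88, a call lost without replicate 3 of TNF+TGF-β (adjusted p = 0.0511). Ddit4 was higher by 0.74, a call lost without replicate 1 or 3 of TNF+TGF-β (adjusted p = 0.0642 and 0.104) and without replicate 1 of IL-6+TGF-β (adjusted p = 0.0673). The count of 5 fell to 2 without replicate 3 of TNF+TGF-β.

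Few genes of growth and division were called. None of 24 cholesterol and fatty acid synthesis genes (median 0.12), none of 20 mitosis genes (median 0.06) and none of 15 genes of MHC class I presentation (median 0.10) was called, although 1 of the last was called higher without replicate 1 of IL-6+TGF-β. Mki67, the proliferation marker, was at 65.3, 50.4 and 65.8 FPKM with TNF+TGF-β, against 42.3, 58.8 and 47.0 FPKM with IL-6+TGF-β, and Myc was at 169, 193 and 174 FPKM with TNF+TGF-β, against 206, 273 and 233 FPKM with IL-6+TGF-β. The libraries of Mki67 overlapped, those of Myc did not, and neither gene was called (0.29 ± 0.21 SE and -0.40 ± 0.26 SE). Of 20 replication genes Cdt1 alone was lower (-0.55 ± 0.14 SE, adjusted p = 0.0155), a call lost without replicate 1 or 2 of TNF+TGF-β (adjusted p = 0.0703 and 0.0619) and without replicate 2 of IL-6+TGF-β (adjusted p = 0.0529). Of 16 MYC and ribosome genes Pes1 alone was lower (-0.39 ± 0.11 SE, adjusted p = 0.0258), a call that held without replicate 3 of TNF+TGF-β and was lost without each other library (adjusted p up to 0.105, without replicate 1 of TNF+TGF-β). The medians were -0.16 for the replication list and -0.31 for the MYC and ribosome list. In 6 and 8 of their genes all TNF+TGF-β libraries lay below all IL-6+TGF-β libraries, as in 15.5% of all genes. With the 9 WT libraries 2 and 3 of their genes were called lower.

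Interferon genes were called in both directions. Of all genes, 7.95% were called higher and 6.05% lower. Of 15 kept type I interferon genes, Ifih1, the gene of the RNA sensor MDA5, was higher by 2.02 and Zbp1, a sensor of left-handed nucleic acids, lower by 0.93 (median 0.12). Gbp2, an interferon-induced GTPase, was at 48.9, 45.9 and 34.3 FPKM with TNF+TGF-β, against 199, 244 and 178 FPKM with IL-6+TGF-β. It was lower in every TNF+TGF-β library (-2.24 ± 0.17 SE, adjusted p = 2.45e-06), and Gbp3 was lower by 1.03 while Gbp9 was higher by 1.04. Tgtp2, lower by 0.49, is a near-identical copy of Tgtp1, and its call was lost without replicate 3 of TNF+TGF-β (adjusted p = 0.0685). These 4, 1 higher and 3 lower, were the called genes among 15 of the interferon-γ GTPase list (median 0.07). In 7 of the 15 all TNF+TGF-β libraries lay below all IL-6+TGF-β libraries, and in 3 above them. Over all genes these shares were 15.5% and 17.3%. Without replicate 1 of IL-6+TGF-β 2 type I interferon genes were higher, and without its replicate 2 as many GTPase genes were. Of 14 kept naive T cell genes 4 were lower and 1 higher (median -0.29). Igfbp4, a secreted binder of insulin-like growth factors, was at 166, 152 and 178 FPKM with TNF+TGF-β, against 781, 875 and 948 FPKM with IL-6+TGF-β, and Satb1, a chromatin organiser, was at 42.3, 68.0 and 34.5 FPKM with TNF+TGF-β, against 124, 201 and 143 FPKM with IL-6+TGF-β. Both were lower without overlap (-2.38 ± 0.25 SE, adjusted p = 3.46e-05 and -1.70 ± 0.26 SE, adjusted p = 0.000705), and Dapl1 was higher by 2.12.

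Several of the largest changes belonged to none of these lists. Lad1, which encodes ladinin-1, a protein of the epithelial basement membrane, had the largest rise among genes averaging 10 FPKM or more in 1 of the groups. It was at 318, 409 and 289 FPKM with TNF+TGF-β, against 4.24, 6.83 and 6.11 FPKM with IL-6+TGF-β (5.66 ± 0.20 SE, adjusted p = 8.47e-09). Scin, which encodes the actin-severing protein scinderin, was at 41.7, 65.5 and 36.5 FPKM with TNF+TGF-β, against 0.23, 0.10 and 0.26 FPKM with IL-6+TGF-β (5.31 ± 0.20 SE, adjusted p = 1.09e-08). Igfbp7, another binder of insulin-like growth factors, was at 302, 219 and 266 FPKM with TNF+TGF-β, against 16.7, 9.10 and 9.53 FPKM with IL-6+TGF-β (4.40 ± 0.20 SE, adjusted p = 3.67e-08). All 3 were low or nearly absent in every IL-6+TGF-β library. The other large rises were Pla2g4f, a phospholipase A2, Idi2, an isomerase of isoprenoid synthesis, Pdzk1ip1, Ly6g5b and Serpinc1, the gene of antithrombin, with differences of 4.22 to 4.89. Scin, Pla2g4f, Idi2 and Serpinc1 passed the filter through TNF+TGF-β alone, which favours their calls.

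Among the largest falls, Wfdc17, a small secreted protein, was at 1.61, 3.44 and 1.74 FPKM with TNF+TGF-β, against 199, 73.9 and 219 FPKM with IL-6+TGF-β (-5.55 ± 0.45 SE, adjusted p = 4.22e-06). Pltp, which transfers phospholipids between lipoproteins, was at 0.17, 0.26 and 0.79 FPKM with TNF+TGF-β, against 41.6, 54.0 and 53.2 FPKM with IL-6+TGF-β (-5.19 ± 0.20 SE, adjusted p = 1.09e-08). Ly6a, the gene of the surface antigen Sca-1, was at 20.5, 20.5 and 22.1 FPKM with TNF+TGF-β, against 441, 428 and 394 FPKM with IL-6+TGF-β (-4.26 ± 0.26 SE, adjusted p = 3.63e-07). These genes were low in all 3 TNF+TGF-β libraries, and Wfdc17 varied most among the IL-6+TGF-β libraries, with replicate 2 the lowest. Pltp passed the filter through IL-6+TGF-β alone, which favours its call. Serpinb1a, an inhibitor of neutrophil-type proteases, was lower by 3.77. Mt2, which encodes a metallothionein, was lower by 3.52, and its neighbour Mt1, chosen after its values were seen, was at 52.2, 75.9 and 73.3 FPKM with TNF+TGF-β, against 539, 307 and 504 FPKM with IL-6+TGF-β.

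TNF+TGF-β libraries held less RNA of B cell markers. The 9 listed markers, among them Cd79a, Cd22 and Ighm, summed to 617 to 806 FPKM with TNF+TGF-β and to 1236 to 2241 FPKM with IL-6+TGF-β, with 6 of 9 called lower. Cd79a, a chain of the B cell receptor, was at 76.5, 123 and 78.0 FPKM with TNF+TGF-β, against 293, 147 and 302 FPKM with IL-6+TGF-β. Replicate 2 of IL-6+TGF-β was the lowest of its group. The count of 6 fell to 3 without replicate 1 of TNF+TGF-β and to 3 without replicate 1 or 3 of IL-6+TGF-β, and the Cd79a call (-1.37 ± 0.34 SE, adjusted p = 0.0164) was lost in each of these and without replicate 3 of TNF+TGF-β (adjusted p between 0.0615 and 0.07). Mzb1, a gene of plasma and marginal zone B cells, was lower by 1.89, the 1 call among 4 plasma cell markers, of which 3 were called lower without replicate 1 of IL-6+TGF-β. Ighg1, the heavy chain of IgG1, is in neither list and was chosen after its values were seen. It went the other way, at 21.2, 36.2 and 20.2 FPKM with TNF+TGF-β, against 0.32, 3.20 and 0.29 FPKM with IL-6+TGF-β (3.75 ± 0.40 SE, adjusted p = 4.03e-05). Markers of dendritic cells and MHC class II summed to 2739 to 3996 FPKM with TNF+TGF-β and to 2702 to 5973 FPKM with IL-6+TGF-β, nearly all of it Cd74 and MHC class II genes, and the dendritic cell genes Flt3 and Xcr1 were below 1 FPKM in all 6 libraries. Zbtb46, a factor of dendritic cells, was the called member of that list, higher by 2.53. It passed the filter through TNF+TGF-β alone, which favours its call, and with a filter at 5 FPKM no member was called higher. Without replicate 2 of IL-6+TGF-β, the MHC class II genes H2-Aa, H2-Ab1 and H2-Eb1 were called lower and Itgax, an integrin of dendritic and myeloid cells, higher (1.26, adjusted p = 0.0164), as Itgax was without replicate 3 of TNF+TGF-β (adjusted p = 0.0425). No erythroid marker passed the filter and no γδ T cell marker was called. The 4 γδ T cell markers summed to 9.85 to 15.0 FPKM with TNF+TGF-β and to 16.3 to 25.8 FPKM with IL-6+TGF-β. Of these, Trdc was called lower with the trend with transcript length removed (-0.62, adjusted p = 0.0265). The part of γδ T cells in these results was not tested. Myeloid markers are given with the IL-1 genes, and Lyz2 was called higher without replicate 2 of IL-6+TGF-β (2.25, adjusted p = 0.0462). The part of B cells in the genes that were lower with TNF+TGF-β was not tested.

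**Figure D5:**
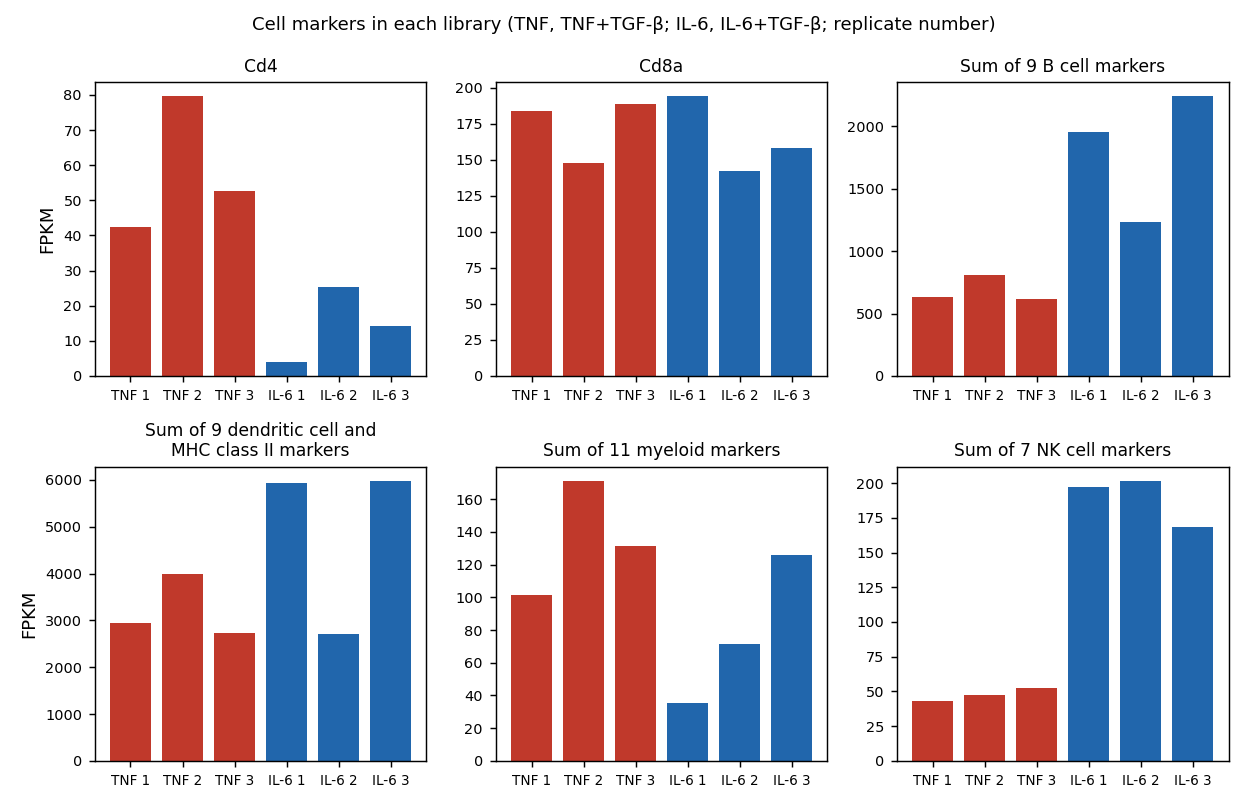
Bars are FPKM in each of the 6 libraries (TNF+TGF-β in red, IL-6+TGF-β in blue, replicates numbered below) for Cd4, Cd8a and the sums of 4 marker lists, each on its own axis from 0. B cell and NK cell sums are higher in every IL-6+TGF-β library, Cd4 is higher in every TNF+TGF-β library, and Cd8a overlaps.

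The other 2 groups of the study give these levels a setting. They are cells of Tnfr2-/- mice with TNF+TGF-β and WT cells activated without added cytokine (Th0), 3 libraries each. The third Tnfr2-/- library could be matched to its group but not to a replicate number of the labels. Tnfrsf1b, the targeted gene, was at 4.87, 3.71 and 3.19 FPKM in Tnfr2-/- with TNF+TGF-β, against the WT values given above. The comparisons these groups allow share libraries with the one described here, and only levels are given. Csf2 averaged 1.02 ± 0.61 FPKM in Tnfr2-/- with TNF+TGF-β, 77.4 ± 8.73 FPKM in WT with TNF+TGF-β, 1.06 ± 0.73 FPKM in WT with IL-6+TGF-β and 6.62 ± 2.33 FPKM in Th0 (SD, n = 3 each). Gata3 averaged 7.79 ± 3.56 FPKM in Tnfr2-/- with TNF+TGF-β, 83.2 ± 15.1 FPKM in WT with TNF+TGF-β, 5.34 ± 1.55 FPKM in WT with IL-6+TGF-β and 8.28 ± 1.85 FPKM in Th0 (SD, n = 3 each). Il17f averaged 116 ± 25.7 FPKM in Tnfr2-/- with TNF+TGF-β, 139.5 ± 84.6 FPKM in WT with TNF+TGF-β, 1777 ± 633 FPKM in WT with IL-6+TGF-β and 0.16 ± 0.15 FPKM in Th0 (SD, n = 3 each). Csf2 and Gata3 were highest in WT cells with TNF+TGF-β, and Il17f had a middle level with TNF+TGF-β in both genotypes. Igfbp7 averaged 194 ± 9.62 FPKM in Tnfr2-/- with TNF+TGF-β, 262 ± 41.5 FPKM in WT with TNF+TGF-β, 11.8 ± 4.29 FPKM in WT with IL-6+TGF-β and 121 ± 13.2 FPKM in Th0 (SD, n = 3 each). Ly6a averaged 168 ± 74.5 FPKM in Tnfr2-/- with TNF+TGF-β, 21.1 ± 0.94 FPKM in WT with TNF+TGF-β, 421 ± 23.9 FPKM in WT with IL-6+TGF-β and 1371 ± 140.2 FPKM in Th0 (SD, n = 3 each). Igfbp7 was lowest with IL-6+TGF-β, and Ly6a was highest in Th0. Socs3 averaged 8.08 ± 1.63 FPKM in Tnfr2-/- with TNF+TGF-β, 5.80 ± 2.01 FPKM in WT with TNF+TGF-β, 138 ± 11.9 FPKM in WT with IL-6+TGF-β and 5.01 ± 1.92 FPKM in Th0 (SD, n = 3 each). Nfkb2 averaged 62.3 ± 16.9 FPKM in Tnfr2-/- with TNF+TGF-β, 233 ± 20.4 FPKM in WT with TNF+TGF-β, 77.0 ± 6.22 FPKM in WT with IL-6+TGF-β and 94.5 ± 1.86 FPKM in Th0 (SD, n = 3 each). Relb averaged 116 ± 8.19 FPKM in Tnfr2-/- with TNF+TGF-β, 117 ± 8.54 FPKM in WT with TNF+TGF-β, 74.6 ± 4.03 FPKM in WT with IL-6+TGF-β and 66.4 ± 5.04 FPKM in Th0 (SD, n = 3 each). Socs3 was highest with IL-6+TGF-β, while Nfkb2 and Relb, both NF-κB subunits, differed in the Tnfr2-/- libraries, where Nfkb2 was low and Relb near its WT level with TNF+TGF-β. The Tnfr2-/- libraries held more RNA of B cell, plasma cell, myeloid and MHC class II markers, and less of CD8 T cell, NK cell and γδ T cell markers. B cell markers summed to 3774 to 6958 FPKM in Tnfr2-/- with TNF+TGF-β, against 617 to 806 FPKM in WT with TNF+TGF-β. Myeloid markers summed to 315 to 1583 FPKM in Tnfr2-/- with TNF+TGF-β, against 101 to 171 FPKM in WT with TNF+TGF-β. Markers of dendritic cells and MHC class II summed to 18350 to 36230 FPKM, against 2739 to 3996 FPKM. The other way went markers of CD8 T cells (53.5 to 105 FPKM, against 355 to 411 FPKM) and NK cells (4.83 to 9.35 FPKM, against 42.9 to 52.5 FPKM). So did those of γδ T cells (4.79 to 6.64 FPKM, against 9.85 to 15.0 FPKM). The part of other cells in the levels of Tnfr2-/- cells was not tested.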

How the data were processed

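FPKM per gene were deposited by the authors as 1 table of 12 libraries. Trimmomatic, STAR 2.5.4 and RSEM 1.3.1 and the mm10 build are named, without role or order, per the submitters' processing notes, and the libraries were made with a SMARTer low-input kit and Nextera XT per the labels' protocols. That the values are FPKM was read from their scaling, since levels weighted by transcript length summed to 900467 to 1010100 in every library. The labels do not say whether strand was used in counting, so overlapping and antisense genes cannot be told apart.

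From these values log2(FPKM + 1) was computed and limma 3.58.1 in R 4.3.3 was fitted with 4 group means over all 12 libraries, which share 1 estimate of the spread, with a mean-variance trend and Benjamini-Hochberg adjustment, and every adjusted p in the text comes from such fits. The steps were tested on simulated data. Coordinates came from GENCODE M21, matched for 12096 of the 12132 genes (99.7%), and promoter windows from RefSeq GRCm38.p6. Depth was estimated from low values of 8697 single-transcript genes, of which 84.1 to 87.6% were within 0.2 of a whole fragment, too few to recover counts. Some genes counted in the lists are not reported here by name. Genes and lists were chosen with earlier results of these data known. Named genes were 26 fixed ones, the 12 largest rises and falls with a mean of 10 FPKM or more, the 4 largest called changes of each of 29 lists, and the kept members of 9 marker lists, and those named beyond this were chosen after their values were seen. Alternatives were other pseudocounts (0.1 and 0.5), filters, scalings and sets of libraries, and leaving out each library, and removing the trend with transcript length was added after seeing the data.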

Additional observations from a re-analysis of the deposited data

How the results depend on the processing

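Counts of called genes kept within 1.5 times of 964 higher and 734 lower under all 17 other settings and the added one. Leaving out 1 library gave 680 to 895 higher and 501 to 724 lower, and the others ran from 661 higher and 541 lower (a filter at 5 FPKM) to 1078 higher (no filter on low values) and 840 lower (9 WT libraries). The share of calls that were higher lay between 53.0% (median-ratio scaling) and 60.5% (TPM), with medians of all genes of -0.024 and 0.068. Of 110 named genes that were called, 19 lost the call without some library, which the text gives beside most of them, and Ms4a1 did so in the B cell list. Without a filter on low values Cd4, Tgfb1, Dusp1, Ldha, Bok, Klrk1, Il4ra and Il6st were not called. Whether the replicate numbers pair the libraries was not settled. Deviations of same-numbered libraries correlated at 0.128, 0.208 and -0.085, and those of differently numbered libraries at -0.294 to 0.215. Cd4 was lowest in replicate 1 and highest in replicate 2 of both groups and of Th0 (18.9, 62.4 and 25.5 FPKM). S100a8 was highest in replicate 3 of both groups and of Th0 (3.17, 1.16 and 17.7 FPKM). The main fit holds no term for the replicate number. Among the 6 libraries a fit with the replicate number as a block gave 889 higher and 651 lower, against 854 and 630 without it. With that block Foxp3 (0.94, adjusted p = 0.0175), Itgax, Dusp2, Dusp4, Lyz2, Csf1r, Cd14 and Cd68 were called higher and Smad3, S100a8 and S100a9 lower. Signs turned only in named genes near 0 that were not called. Under median-ratio scaling Trac and Rora were at -0.01. Under TPM Cd3d was at 0.06, Runx3 at 0.04 and Il6ra at 0.03. With the length trend removed Cd8a was at -0.01, Rora at -0.08, Cd3d at 0.10 and Runx3 at 0.02. Leaving out 1 library moved Cd8a between -0.02 and 0.20, Trac between -0.05 and 0.09, Rora between -0.28 and 0.22, Cd3d between -0.14 and 0.19, Runx3 between -0.32 and 0.23, Il6ra between -0.23 and 0.11, Tnf between -0.15 and 0.03, Irf4 between -0.34 and 0.09 and Blk between -0.39 and 0.17. The cause was not tested. With 3 libraries a group and about 0.125 to 0.140 FPKM for 3 fragments on 1 kilobase, levels below that range are not told from 0.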

Other observations

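Genes beyond the lists that changed by a large amount were read from the 60 largest rises and the 60 largest falls after their values were seen, and they support no statement about a pathway. Irf5, an interferon regulatory factor of innate signalling, was at 233, 226 and 211 FPKM with TNF+TGF-β, against 19.0, 20.3 and 27.2 FPKM with IL-6+TGF-β (3.29 ± 0.15 SE, adjusted p = 5.00e-08). Slc2a6, a hexose transporter, was at 262, 289.6 and 196 FPKM with TNF+TGF-β, against 27.8, 24.8 and 25.4 FPKM with IL-6+TGF-β (3.19 ± 0.21 SE, adjusted p = 6.90e-07). Cd82, a tetraspanin of the cell surface, was at 877, 971 and 848 FPKM with TNF+TGF-β, against 109, 150.5 and 147 FPKM with IL-6+TGF-β (2.73 ± 0.18 SE, adjusted p = 9.23e-07). All 3 genes were higher with TNF+TGF-β with no overlap between the groups. Adgrg1, the adhesion receptor GPR56, was higher by 3.91, and Dgat2, which makes triglycerides, by 4.08. Of the retinoid genes among these, Rxra, a nuclear receptor of retinoids, was higher by 3.41, Dhrs3, a retinal reductase, was higher by 3.54, and Rbp4, a retinol carrier, was lower by 2.15.

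Related genes lay on opposite sides in places. Ifitm2, a membrane protein that restricts viruses, was at 291, 320.4 and 265 FPKM with TNF+TGF-β, against 18.5, 18.3 and 11.4 FPKM with IL-6+TGF-β (4.13 ± 0.17 SE, adjusted p = 1.52e-08). Ifitm1, a relative of it, was at 3.31, 2.62 and 3.34 FPKM with TNF+TGF-β, against 22.6, 30.0 and 22.5 FPKM with IL-6+TGF-β (-2.66 ± 0.29 SE, adjusted p = 4.40e-05). The first was higher and the second lower in every TNF+TGF-β library, and reads of such relatives can be split in counting. Malt1, a protease of NF-κB signalling from the antigen receptor, was lower by 1.90, against the direction of the 12 NF-κB genes that were higher. Klrc1, the receptor NKG2A, was lower by 3.20. Vpreb3 and Bank1, genes of B cells, were lower by 3.03 and 1.92, beside the lower sums of B cell markers, whose part in these results was not tested. Ighg1 went the other way (above).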
